A study of Mus musculus with 36 samples.

Results

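The STAT3, SOCS and C/EBP response was followed through 10 genes in hippocampal slices of mice: Socs1, Socs2, Socs3, Cish, Stat3, Jak2, Il4ra, Pim1, Cebpb and Cebpd. They were chosen by name, as the 10 rows of the 55421 gene rows whose mouse Ensembl identifiers carry these symbols, and all 10 passed the filter on low counts that left 19478 genes. Slices came from 18 mice of 16 months of age. Wild-type mice (WT) were C57BL/6, and T41B mice carried human APP with the London and Swedish mutations under Thy1 control, a promoter used for expression in neurons, as a single transgenic line (Line 41) that models amyloid deposition. All mice were gavaged for 3 months, from 13 months of age, with vehicle (VEH) or with BD10-2, a small-molecule ligand of the neurotrophin receptors TrkB and TrkC. One slice of a right hippocampus received theta-burst stimulation (TBS), the pattern used to induce long-term potentiation, given in 3 rounds of 10 bursts. A sham slice was handled for as long without it, and slices were frozen at once. The 8 groups held 4 mice each under VEH, 3 WT mice and 5 T41B mice each under BD10-2, and 14 mice gave both slices.

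Cytokines of the IL-6 family bind receptors that share the chain gp130, and the attached Janus kinases phosphorylate STAT3, which enters the nucleus and switches on genes. Among those genes are the SOCS proteins and Cish, which bind the receptor or the kinase and shut the signal off, a textbook negative feedback loop. C/EBPβ and C/EBPδ are transcription factors of the acute-phase response that act beside STAT3, and in brain these genes are known from reactive astrocytes and microglia after injury or inflammation.

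The 10 genes are protein coding and lie, in GENCODE M21 on GRCm38, on 8 chromosomes. The inhibitors are Socs1 (ENSMUSG00000038037) at chr16:10782240-10785536, Socs2 (ENSMUSG00000020027) at chr10:95385362-95417180, Socs3 (ENSMUSG00000053113) at chr11:117966079-117970047 and Cish (ENSMUSG00000032578) at chr9:107296026-107302784. The signalling genes are Stat3 (ENSMUSG00000004040) at chr11:100885098-100939540, Jak2 (ENSMUSG00000024789) at chr19:29251828-29313080, Il4ra (ENSMUSG00000030748) at chr7:125552120-125579474 and Pim1 (ENSMUSG00000024014) at chr17:29490753-29496112. The C/EBP genes are Cebpb (ENSMUSG00000056501) at chr2:167688915-167690418 and Cebpd (ENSMUSG00000071637) at chr16:15887286-15891031.

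Library totals ran from 11597555 to 28125842 expected counts, with a median of 18082415. Thy1, whose promoter drives the transgene, lay at 253 to 403 CPM (counts scaled to the size of the library) in WT samples and at 1034 to 2506 CPM in T41B samples, without overlap. Mitochondrial genes took between 2.00% and 5.40% of counts in any sample, with overlapping ranges in the 8 groups. For 4 slices, 2 libraries with equal labels were added. The labels give 8 batches, and each batch held 1 treatment only, so that treatment and batch cannot be told apart. Batch E held WT mice only and batches G and H T41B mice only, so that genotype and batch cannot be told apart for these mice.

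Theta-burst stimulation was accompanied by higher levels of 9 of the 10 genes. Under edgeR's quasi-likelihood test with Benjamini-Hochberg adjustment over all genes (called at an adjusted p under 0.05), 9 members rose in WT VEH mice, where 12.3% of all genes tested were called. In T41B VEH mice 9 rose (21.5% of all genes called), in WT BD10-2 mice 8 rose (8.87%) and in T41B BD10-2 mice 9 rose (22.9%). No member fell. The median log2 fold change of the 10 members was 1.05, 1.16, 1.03 and 1.46 in these 4 comparisons, against -0.01, -0.05, -0.01 and -0.04 over all genes. Socs2 was the exception in all 4. With the mouse as a replicate block, in the 14 mice with both slices, 3873 genes in place of 2397 were called in WT VEH mice, and 9 members again.

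Socs3 encodes the inhibitor that docks on gp130 and blocks the attached kinase. Sham slices of WT VEH mice held 62.3, 65.2, 78.1 and 91.2 CPM of Socs3, and stimulated slices 126, 134, 161 and 182 CPM. In T41B VEH mice the sham slices held 106, 114, 133 and 136 CPM and the stimulated ones 313, 350, 392 and 433 CPM. No stimulated value overlapped the sham values of its own combination of genotype and treatment, and the T41B stimulated groups stood above every WT sample. The log2 fold change was 1.02 (SE 0.18, adjusted p = 0.000188) in WT VEH mice and 1.61 (SE 0.18, adjusted p = 1.29e-07) in T41B VEH mice. In T41B BD10-2 mice the level ran from 123 to 182 CPM in sham and from 265 to 617 CPM in stimulated slices (log2 1.56, SE 0.16). Per kilobase of exon sequence Socs3 was the most abundant of the SOCS genes in WT VEH sham slices, at 25.7 ± 4.59 CPM per kb (SD, n = 4) against 0.92 ± 0.10 for Socs1 and 2.08 ± 0.13 for Socs2.

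Socs1 encodes a direct inhibitor of JAK kinases that is best known for limiting interferon signals. Its level in WT VEH mice was 2.31, 2.67, 2.71 and 3.02 CPM in sham slices and 6.50, 8.20, 9.51 and 11.9 CPM in stimulated slices. T41B VEH sham slices held 4.31, 4.67, 6.42 and 6.80 CPM and stimulated slices 18.7, 18.9, 25.7 and 28.9 CPM. The fitted fold was the largest of the 10 members in each of the 4 comparisons, from 3.36 in WT VEH mice (log2 1.75, SE 0.31) to 5.90 in T41B BD10-2 mice (log2 2.56, SE 0.26). Its adjusted p was 0.000169, 2.86e-06, 0.000872 and 6.39e-09 for WT VEH, T41B VEH, WT BD10-2 and T41B BD10-2 mice.

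Cish, the founding member of the family and a STAT5 target, was the least abundant member per kilobase, at 0.53 ± 0.08 CPM per kb in WT VEH sham slices. Its stimulated slices in WT VEH mice held 4.15, 4.86, 6.06 and 11.6 CPM against 3.06, 3.08, 3.27 and 4.11 CPM in sham slices. The highest value came from Mouse1509, and without this mouse the log2 fold change fell from 0.99 (adjusted p = 0.00468) to 0.53 (adjusted p = 0.146). The call was also lost in a fit of only the groups compared (log2 0.99, adjusted p = 0.0785). In WT BD10-2 mice Cish was not called (log2 0.61, SE 0.26, adjusted p = 0.158), although 4.10, 4.40 and 5.64 CPM in stimulated slices lay above 2.98, 3.13 and 3.18 CPM in sham slices. In T41B mice it rose under both treatments, from 3.94, 4.93, 6.27 and 6.86 CPM to 11.04, 11.8, 13.1 and 15.3 CPM under VEH (log2 1.21, SE 0.22, adjusted p = 0.000157) and by log2 1.63 (SE 0.20, adjusted p = 2.21e-07) under BD10-2.

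Socs2, an inhibitor of growth hormone signalling, did not pass the test in any of the 4 comparisons. The 4 WT VEH sham slices held 18.7, 18.8, 20.4 and 21.2 CPM and the 4 stimulated slices 15.4, 16.0, 17.2 and 18.4 CPM. These 2 groups did not overlap, yet the log2 fold change of -0.24 (SE 0.22, adjusted p = 0.528) had a 95% interval of -0.69 to 0.21. In the other 3 comparisons the log2 fold change was 0.10, -0.47 and 0.09, with overlapping groups. The T41B VEH sham slices were the most scattered, from 6.42 to 18.3 CPM (SD 5.54).

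**Figure D1:**
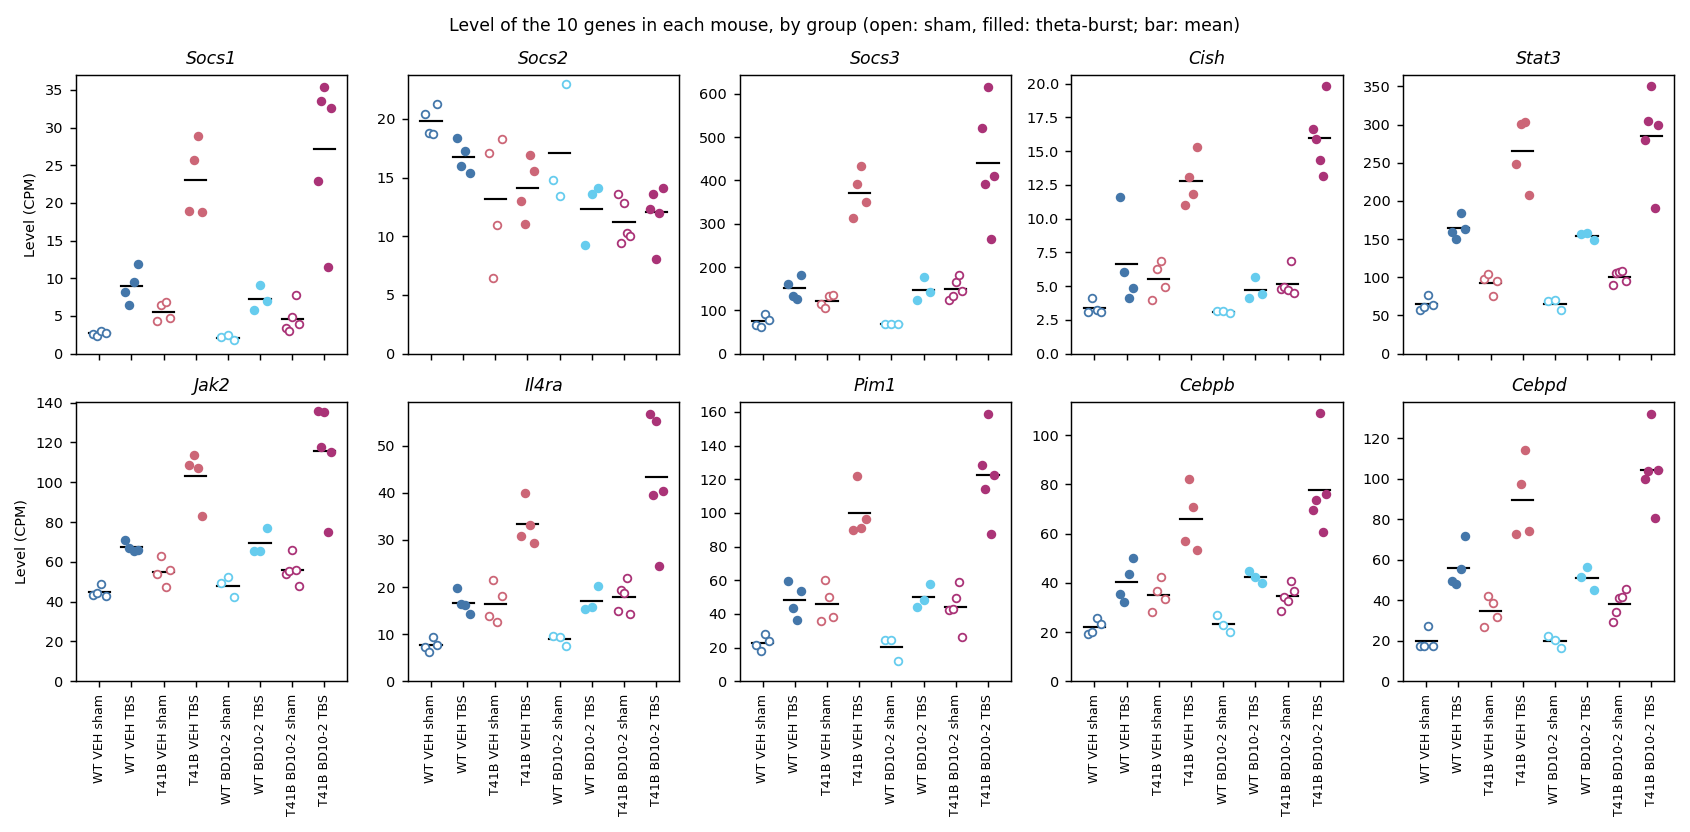
Level of the 10 genes (CPM, linear axes from 0) in each mouse by group; open points are sham slices, filled points stimulated slices and bars group means. In 9 genes the 2 stimulated T41B groups hold the highest means, while the highest mean of Socs2 is that of WT VEH sham slices.

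Stretches of sequence that match the pattern bound by STAT dimers, TTCNNNGAA, were searched because STAT factors are the direct activators of this gene family. RefSeq promoter windows of 300 bases on GRCm38.p6 (250 before to 50 after a start site) were found for 8 of the 10 members, 9 windows in all. The pattern reads the same on both strands, and it was present in windows of Cish and Socs3 only, against 8.30% of 32851 windows of that length. The window of Cish held 2 matches, as did 0.457% of all windows or a larger number. The 2 stretches are given 5′ to 3′ on the strand of the gene, with the matches in capitals.
Cish (chr9:107296654-107296683, plus strand): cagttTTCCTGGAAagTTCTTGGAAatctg
Socs3 (chr11:117969502-117969531, minus strand): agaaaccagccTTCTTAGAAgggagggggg
Counted in bases from the start site of the RefSeq window, the Cish matches begin at 0 and 11 and the Socs3 match at -154. Neither Cish match thus lies upstream of that start site. In the GENCODE M21 annotation the Cish matches, at 107296659 to 107296667 and 107296670 to 107296678, lie in an exon of the transcript that starts at 107296026 and upstream of 4 other transcript starts, 43 and 32 bases before the nearest. The Socs3 match, at 117969512 to 117969520, lies 61 bases upstream of the nearest transcript start, at 117969451, 326 bases upstream of that at 117969186, and in an intron of a longer transcript. The C/EBP pattern TTGCNNAA and the CREB pattern TGACGTCA, searched on both strands, had no match in a member's window, against 10.8% and 1.79% of all windows. A match is a description of letters, and its absence says only that these letters are not in the window.

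Stat3, the transcription factor itself, and Jak2, a kinase that activates it, both rose in all 4 comparisons. Stat3 in WT VEH mice was at 56.7, 60.9, 64.3 and 76.9 CPM in sham slices and at 149, 159, 163 and 184 CPM in stimulated slices (log2 1.34, SE 0.14, adjusted p = 5.53e-08). In T41B VEH mice it was at 75.7, 94.8, 97.1 and 104 CPM and at 207, 248, 301 and 303 CPM (log2 1.51, SE 0.14, adjusted p = 3.78e-09). Every stimulated slice of the series held more Stat3 than every sham slice of the series, the lowest stimulated value being 148 CPM and the highest sham value 108 CPM. The log2 fold change of Stat3 ran from 1.24 to 1.51 over the 4 comparisons.

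Jak2 showed the smallest fold of the 9 genes in 3 of the 4 comparisons, and in T41B VEH mice that of Cebpb was slightly smaller. It had a log2 fold change of 0.59 (SE 0.13) in WT VEH mice, 0.91 (SE 0.13) in T41B VEH mice, 0.53 (SE 0.15) in WT BD10-2 mice and 1.05 (SE 0.12) in T41B BD10-2 mice. Its 4 WT VEH sham slices held 42.8, 43.2, 44.1 and 48.7 CPM and its stimulated slices 65.3, 65.8, 67.2 and 70.9 CPM. The call in WT BD10-2 mice (adjusted p = 0.0248) was lost with the mouse as a replicate block (adjusted p = 0.0535). That fit kept only the 2 WT BD10-2 mice with both slices. The call was also lost without Mouse1565, Mouse1571 or Mouse1590 (adjusted p = 0.0976, 0.137 and 0.166), each of which left 2 mice in a group.

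Il4ra encodes the receptor chain through which IL-4 and IL-13 signal by STAT6. It went from 6.27, 7.35, 7.74 and 9.37 CPM in sham to 14.3, 16.2, 16.4 and 19.8 CPM in stimulated WT VEH slices (log2 1.12, SE 0.21, adjusted p = 0.000362). T41B VEH slices held 12.6, 13.8, 18.2 and 21.4 CPM after sham and 29.3, 30.9, 33.1 and 39.9 CPM after stimulation (log2 1.01, SE 0.20, adjusted p = 0.000365). The log2 fold change was 0.94 in WT BD10-2 and 1.28 in T41B BD10-2 mice. In WT BD10-2 mice the call was lost without Mouse1571 (adjusted p = 0.102) or Mouse1590 (adjusted p = 0.0699).

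Pim1 encodes a serine/threonine kinase that promotes survival and is a STAT target. WT VEH slices held 17.8, 21.7, 23.6 and 27.8 CPM after sham and 36.4, 43.6, 53.9 and 59.5 CPM after stimulation (log2 1.09, SE 0.23, adjusted p = 0.0015). T41B VEH slices held 35.9, 37.9, 50.1 and 60.2 CPM after sham and 89.6, 91.2, 96.5 and 122 CPM after stimulation (log2 1.12, SE 0.22, adjusted p = 0.000501). The stimulated WT VEH slices overlapped the sham T41B VEH slices. The log2 fold change was 1.29 in WT BD10-2 and 1.47 in T41B BD10-2 mice.

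Cebpd, a C/EBP factor known to be low at rest and quickly induced in acute-phase responses, went from 17.4, 17.5, 17.6 and 27.1 CPM to 48.0, 49.5, 55.2 and 71.7 CPM in WT VEH mice (log2 1.495, SE 0.18, adjusted p = 9.96e-07). The log2 fold change was 1.37, 1.37 and 1.44 in T41B VEH, WT BD10-2 and T41B BD10-2 mice. Cebpb, a C/EBP factor of macrophages and of the acute-phase response, went from 19.1, 19.9, 23.2 and 25.6 CPM to 32.1, 35.5, 43.6 and 49.97 CPM in WT VEH mice (log2 0.88, SE 0.17, adjusted p = 0.000504). In T41B VEH, WT BD10-2 and T41B BD10-2 mice it changed by log2 0.90, 0.86 and 1.17. In WT BD10-2 mice the call of Cebpb was lost without the 4 mice that have same-label libraries (adjusted p = 0.112), which left 1 stimulated and 2 sham slices, the lone one assumed to vary like the other groups. Both C/EBP genes were higher in every stimulated slice than in the sham slices of the same combination.

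**Figure D2:**
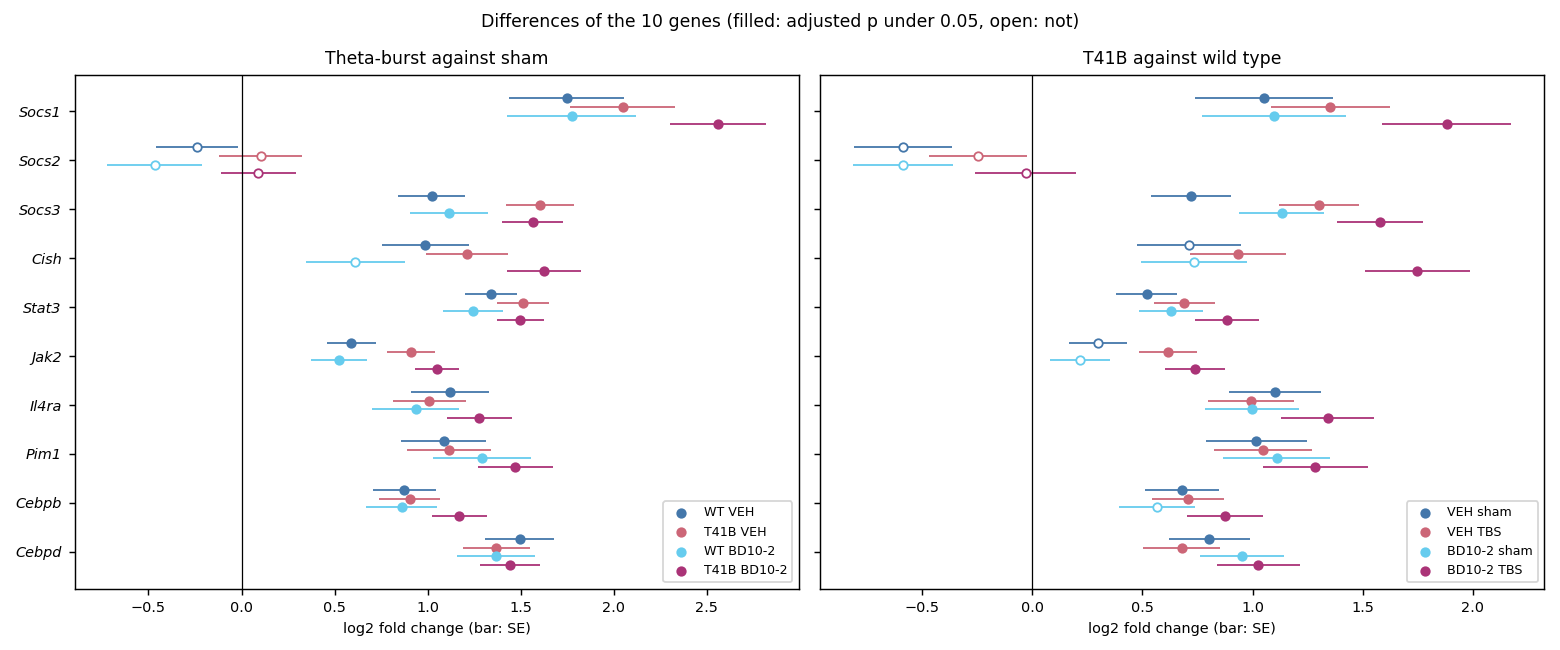
Log2 fold changes with their standard errors; the left panel compares stimulated with sham slices, the right panel T41B with WT mice, filled points have an adjusted p under 0.05. On the left 9 genes lie to the right of 0 in all 4 comparisons, and Socs2 is called in none of the 8 comparisons shown.

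Both slices of 14 mice allow a ratio within the mouse. Each of the 9 genes other than Socs2 was higher in the stimulated slice in 14 of 14 mice. How many of all genes were so was not counted. The median ratio was 4.00 for Socs1, 2.59 for Cebpd, 2.55 for Stat3, 2.52 for Socs3, 2.47 for Pim1, 2.10 for Il4ra, 2.08 for Cish, 1.80 for Cebpb and 1.60 for Jak2. Socs2 was higher in 5 of 14 mice, with ratios from 0.627 to 1.73. The ratios of Socs1 had the widest range, 2.66 to 10.98.

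**Figure D3:**
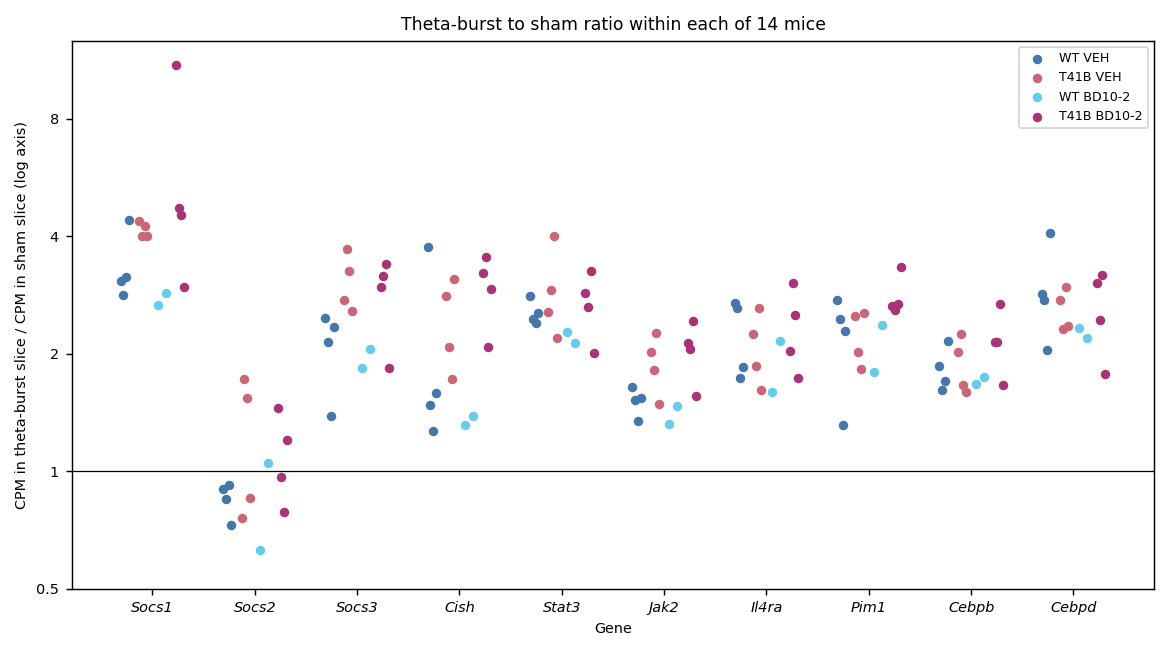
Ratio of CPM in the stimulated to that in the sham slice of the same mouse (log axis), for 14 mice coloured by genotype and treatment. Points of 9 genes all lie above 1, and those of Socs2 fall on both sides.

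Markers of cell types moved with stimulation as well. The summed level of 10 microglia markers ran from 247 to 312 CPM in WT VEH sham slices and from 117 to 174 CPM in stimulated ones. In T41B VEH mice it ran from 472 to 792 CPM in sham and from 243 to 316 CPM in stimulated slices. The sum of 8 astrocyte markers ran from 6600 to 7301 CPM in WT VEH sham slices, from 7154 to 9130 CPM in stimulated ones, and in T41B VEH mice from 5738 to 7499 CPM and from 8124 to 9501 CPM. Under BD10-2 its ranges overlapped, at 7218 to 7982 and 7566 to 8663 CPM in WT and 6463 to 8015 and 7723 to 9640 CPM in T41B slices. Most of this sum was Slc1a2, with means of 5547 and 6263 CPM in sham and stimulated WT VEH slices. Aqp4 was there at 99.6 and 156 CPM, Fgfr3 at 105 and 103 CPM and Gjb6 at 26.3 and 27.1 CPM. The sum of 8 neuronal markers ran from 8566 to 9479 CPM in sham and from 7403 to 9405 CPM in stimulated WT VEH slices, and from 8240 to 8670 CPM and 6975 to 8724 CPM in T41B VEH slices. In WT BD10-2 slices it was lower after stimulation without overlap, at 8896 to 9212 CPM in sham and 7506 to 8378 CPM in stimulated slices, and in T41B BD10-2 slices it ran from 7177 to 8883 CPM and from 5900 to 8411 CPM. No marker of these lists was at 0 in any group. The 9 markers of blood neutrophils and monocytes summed to at most 1.38 CPM in any sample, and between 2 and 5 of the 9 had a group mean of 0, Ly6g in 7 groups, Camp in 7 and Retnlg in 7. The sum of 7 endothelial markers ran from 47.8 to 134 CPM in sham and from 131 to 243 CPM in stimulated T41B VEH slices. In WT VEH slices it ran from 116 to 138 CPM and from 27.7 to 233 CPM, in WT BD10-2 slices from 112.5 to 134 CPM and from 121 to 196 CPM, and in T41B BD10-2 slices from 94.1 to 184 CPM and from 110 to 241 CPM. Its markers did not move together. In T41B VEH slices the mean of Cdh5 was 12 CPM in sham and 73.5 CPM in stimulated slices and that of Pecam1 10.4 and 26.8 CPM, while Slco1a4 was at 11.86 and 1.85 CPM, Ly6c1 at 8.27 and 4.79 CPM and Tek at 4.21 and 2.92 CPM. The sum of 6 oligodendrocyte markers ran from 3659 to 5692 CPM in sham and from 4650 to 8124 CPM in stimulated WT VEH slices, and from 4652 to 9835 CPM and 3323 to 8009 CPM in T41B VEH slices. In WT BD10-2 slices its ranges did not overlap, at 3804 to 5973 CPM and 6444 to 9033 CPM, and in T41B BD10-2 slices they were 4927 to 7207 CPM and 5976 to 11100 CPM. Choroid plexus markers summed to 16.3 to 21.5 CPM in sham and 14.4 to 1224 CPM in stimulated WT VEH slices, and to 17.3 to 533 CPM and 18.5 to 298 CPM in T41B VEH slices. Ttr had a mean of 488 CPM in stimulated WT VEH slices, and of 141 and 85.0 CPM in sham and stimulated T41B VEH slices. In sham WT VEH slices the sum was chiefly Kl, at 16.9 CPM, with Ttr at 0.40 CPM. In bulk samples, fewer cells of a type and less RNA per cell cannot be told apart, and the part that cell makeup plays in the members' changes was not tested.

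T41B mice held more of most members than WT mice, in sham and in stimulated slices alike. In VEH sham slices 7 members were higher in T41B mice (6.24% of all genes called), in VEH TBS slices 9 (5.79%), in BD10-2 sham slices 6 (5.45%) and in BD10-2 TBS slices 9 (10.6%), and no member was lower. The median log2 fold change of the members was 0.72, 0.82, 0.84 and 1.15, against 0.00, -0.03, 0.01 and -0.02 over all genes. Of the inhibitors, Socs3 differed by log2 0.72 (SE 0.18, adjusted p = 0.0135) in VEH sham and by 1.30 (SE 0.18, adjusted p = 2.2e-05) in VEH TBS slices. Socs1 differed by log2 1.05 (SE 0.31, adjusted p = 0.0411) in VEH sham slices and by 1.88 (SE 0.29, adjusted p = 4.53e-05) in BD10-2 TBS slices. The VEH sham call of Socs1 was lost without any 1 of 7 mice (log2 0.94 to 1.11, adjusted p 0.0535 to 0.143). It was also lost with the first library of each same-label pair (adjusted p = 0.0781) and with libraries as separate samples (adjusted p = 0.0759). The BD10-2 sham call of Socs1 (adjusted p = 0.0443) was lost with libraries as separate samples (adjusted p = 0.0557) and without any 1 of Mouse1509, Mouse1522, Mouse1551, Mouse1563, Mouse1564, Mouse1565, Mouse1571, Mouse1579 or Mouse1590 (log2 0.83 to 1.18, adjusted p 0.0505 to 0.175).

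Cish was called for genotype in both stimulated comparisons, at log2 0.94 (SE 0.22, adjusted p = 0.00678) under VEH and 1.75 (SE 0.24, adjusted p = 7.77e-06) under BD10-2. The VEH call was lost in a fit of only the groups compared (log2 0.94, SE 0.29, adjusted p = 0.108). In sham slices it was not called, at log2 0.71 (adjusted p = 0.0709) and 0.73 (adjusted p = 0.0733). DESeq2 called it in both sham comparisons (adjusted p = 0.0445 and 0.039), and it was also called in BD10-2 sham slices with only the groups compared (adjusted p = 0.0212) or without Mouse1509 (adjusted p = 0.0173) and in VEH sham slices without Mouse1510 (adjusted p = 0.0302). The test of the difference in its stimulation response is given further on. Jak2 was called in both stimulated comparisons (log2 0.62 and 0.74) and in neither sham comparison (log2 0.30 and 0.22, adjusted p = 0.186 and 0.408). Stat3 was called in all 4 (log2 0.52, 0.69, 0.63 and 0.88), as were Il4ra (1.10, 0.99, 0.999 and 1.34), Pim1 (1.02, 1.05, 1.11 and 1.29) and Cebpd (0.80, 0.68, 0.95 and 1.03). Cebpb was called in 3 of 4, with an adjusted p of 0.052 in BD10-2 sham slices, where DESeq2 (adjusted p = 0.0225), a fit of only the groups compared (adjusted p = 0.0169) and 6 fits without 1 mouse (adjusted p 0.0358 to 0.0498) called it. In VEH sham slices the call of Stat3 was lost with only the groups compared (adjusted p = 0.0546), with the first library of each same-label pair (adjusted p = 0.0587) and without Mouse1509, Mouse1513 or Mouse1551 (adjusted p = 0.104, 0.0684 and 0.0954). That of Socs3 was lost there with the first library of each pair (adjusted p = 0.062) and without Mouse1509 or Mouse1513 (adjusted p = 0.0728 and 0.0635), and that of Cebpb without Mouse1509 or Mouse1553 (adjusted p = 0.0672 and 0.0734). In VEH TBS slices the call of Cebpb was lost without Mouse1551 (adjusted p = 0.0566), and that of Cebpd without Mouse1509, Mouse1513, Mouse1551 or Mouse1553 (adjusted p = 0.069, 0.0784, 0.057 and 0.0904). The BD10-2 TBS call of Pim1 was lost without the 4 mice that have same-label libraries (adjusted p = 0.0548). Socs2 was at log2 -0.59, -0.25, -0.59 and -0.03 and was not called. Its VEH sham values did not overlap, at 6.42 to 18.3 CPM in T41B and 18.7 to 21.25 CPM in WT mice. There it was called lower in T41B mice without Mouse1510 (log2 -0.74, adjusted p = 0.0481) or without Mouse1579 (log2 -0.79, adjusted p = 0.0431).

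Within batch, 7 values per gene could be had from the batches that held both genotypes, each from 1 or 2 mice per genotype. They come from 4 batches, and sham and stimulated values of a batch share mice, so they are not 7 separate comparisons. How many of all genes had 7 values above 0 was not counted. All 7 were above 0 for Socs1, Socs3, Cish, Stat3, Jak2, Il4ra, Pim1 and Cebpb, 6 of 7 for Cebpd and 2 of 7 for Socs2. Their medians were 0.78 for Socs1, 0.96 for Socs3, 0.69 for Cish, 0.56 for Stat3, 0.33 for Jak2, 1.03 for Il4ra, 0.84 for Pim1, 0.47 for Cebpb and 0.68 for Cebpd, on the log2 scale. With the batch as a covariate the number of members called in VEH sham slices fell from 7 to 2, and in VEH TBS slices from 9 to 6, while the share of all genes called fell from 6.24% to 1.81% and from 5.79% to 3.92%. Cebpd was then at log2 0.36 (adjusted p = 0.49) in VEH sham and 0.23 (adjusted p = 0.456) in VEH TBS slices, and Cebpb at 0.27 (adjusted p = 0.593) and 0.30 (adjusted p = 0.256). Socs1 was at 0.56 (adjusted p = 0.577) and 0.88 (adjusted p = 0.0637), and in VEH sham slices Socs3 was at 0.55 (adjusted p = 0.119) and Stat3 at 0.35 (adjusted p = 0.271). In BD10-2 sham slices the count was 6 with and without the covariate, but Socs1 lost its call (log2 0.91, adjusted p = 0.0895) and Cebpb gained one (log2 0.51, adjusted p = 0.0369). In BD10-2 TBS slices it was 9 in both fits. In BD10-2 sham slices leaving out Mouse1590, which held the lowest value of 9 of the 10 members in its group, reduced the 6 calls to 2, and the share of all genes called to 2.43%. Beside Socs1, the calls lost were those of Stat3 (adjusted p = 0.0901), Il4ra (adjusted p = 0.0505) and Pim1 (adjusted p = 0.0709). By DESeq2 the members called numbered 8 in VEH sham and 8 in BD10-2 sham slices (8.22% and 7.4% of all genes). Microglia markers were also higher in T41B mice, 472 to 792 CPM against 247 to 312 CPM in VEH sham and 243 to 316 CPM against 117 to 174 CPM in VEH TBS slices. Under BD10-2 they were at 546 to 775 CPM against 266 to 327 CPM in sham and 259 to 455.5 CPM against 132 to 160 CPM in TBS slices. In BD10-2 sham slices the sum of neuronal markers was lower in T41B mice without overlap, 7177 to 8883 CPM against 8896 to 9212 CPM, and in the other 3 comparisons its ranges overlapped. The part of these in the members' difference was not tested.

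In the order of the group means the 2 stimulated T41B groups were highest for the 9 genes other than Socs2, and overlapped each other in each of the 9. For 8 of the 9 the T41B VEH TBS group did not overlap the next lower group. For Cish it did, with stimulated WT VEH slices at 4.15 to 11.6 CPM against 11.04 to 15.3 CPM. The share of all genes with such a gap between groups was not counted. Sham WT slices, under VEH or BD10-2, held the 2 lowest means of each of the 9 genes.

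BD10-2 against vehicle gave no call for any member, and none for any gene. The percentage of genes called was 0% in each of the 4 treatment comparisons (edgeR), while 374, 1093, 431 and 759 genes had an unadjusted p under 0.05 in WT sham, WT TBS, T41B sham and T41B TBS slices. By DESeq2, 25 genes were called in WT TBS slices, none of them a member. The largest member differences were in WT TBS slices, Cish at log2 -0.49 (95% interval -0.99 to 0.01) and Socs2 at -0.45 (-0.94 to 0.05). In T41B TBS slices Il4ra was at log2 0.38 (0.00 to 0.75, unadjusted p = 0.0489) and Socs3 at 0.25 (-0.10 to 0.60). For Stat3 the interval ran from -0.16 to 0.37 in T41B TBS slices and from -0.30 to 0.32 in WT sham slices. An absent call does not show equal levels.

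Whether stimulation raised the genes by a different factor in T41B than in WT mice was tested by the interaction of genotype and stimulation. No gene passed (0% called) under VEH or under BD10-2, with 1683 and 846 genes at an unadjusted p under 0.05, and DESeq2 called 1 and 20 genes, none of them a member. Under BD10-2 Cish was at log2 1.02 (95% interval 0.33 to 1.70, unadjusted p = 0.00454, adjusted p = 0.797), Socs1 at 0.79 (-0.10 to 1.67), Socs2 at 0.56 (-0.11 to 1.23) and Jak2 at 0.53 (0.13 to 0.92, unadjusted p = 0.00985, adjusted p = 0.843). Under VEH Socs3 was at 0.58 (0.06 to 1.11, unadjusted p = 0.0288, adjusted p = 0.529). The median over the 10 members was log2 0.20 under VEH and 0.39 under BD10-2, against -0.03 and -0.01 over all genes. Treatment by stimulation gave 0% called in WT mice and 0% in T41B mice, with 337 and 526 genes at an unadjusted p under 0.05, 1 gene by DESeq2 in T41B mice, and members between log2 -0.38 and 0.51.

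Mouse1592 held the lowest stimulated value in its group for 9 of the 10 members, and its 2 same-label libraries differed, at 166 and 350 CPM for Socs3 and 6.73 and 18.6 CPM for Cish. The 2 libraries of the Mouse1557 sham and Mouse1586 TBS slices were closer than these for each of the 10 members, and those of the Mouse1565 sham slice for 8 of 10. Its Pim1 values were 20.3 and 30.5 CPM and its Socs2 values 12.4 and 18.02 CPM, ratios of 1.505 and 1.45 against 1.31 and 1.29 in Mouse1592. Socs3 was at 118.7 and 127.8 CPM in Mouse1557 sham, 176 and 178 CPM in Mouse1586 TBS and 62.2 and 75.8 CPM in Mouse1565 sham slices. Leaving out the 4 mice with such libraries gave 9 members called in T41B VEH and T41B BD10-2 stimulation and reduced the count from 8 to 7 in WT BD10-2 mice.

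Other genes of the pathway were counted in the same 4 stimulation comparisons, in which 12.3%, 21.5%, 8.87% and 22.9% of all genes were called in either direction. Of 10 gp130 and related cytokines tested of 12 listed, a list that also holds cytokines outside the gp130 family such as Il10 and Csf3, 6, 7, 8 and 9 rose in WT VEH, T41B VEH, WT BD10-2 and T41B BD10-2 mice and none fell. Lif, a gp130 cytokine, went from 2.05 ± 0.34 to 39.4 ± 16.7 CPM in WT VEH mice (SD, n = 4) and from 6.03 ± 1.41 to 112 ± 18.1 CPM in T41B VEH mice. Il11 went from 0.24 ± 0.24 to 8.42 ± 1.29 CPM, Csf3 (G-CSF) from 0.30 ± 0.22 to 7.59 ± 4.46 CPM and Clcf1 from 1.35 ± 0.50 to 6.99 ± 1.86 CPM in WT VEH mice. Of 15 receptor chains tested of 16, 6, 4, 4 and 5 rose and 2 fell in each comparison, beside the same shares of all genes. Osmr, the oncostatin M receptor, rose by log2 1.91 (SE 0.29) and the gp130 gene Il6st by 0.61 (SE 0.10) in WT VEH mice, Il2rg rose by 2.29 (SE 0.41), and Csf3r, the G-CSF receptor, fell by 1.99 (SE 0.27).

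Among 9 other JAK and STAT genes, 3, 5, 3 and 6 rose and none fell, where 12.3%, 21.5%, 8.87% and 22.9% of all genes were called. Stat5a rose by log2 2.35 (SE 0.25) in WT VEH mice and 2.82 (SE 0.23) in T41B VEH mice, and Stat2 by 1.24 (SE 0.22) and 1.99 (SE 0.22). Jak1 was at 0.19 (SE 0.08, not called) and 0.32 (SE 0.08, called). Of 12 other inhibitors 2, 3, 0 and 3 rose and 0, 2, 1 and 1 fell. Set against those shares of all genes, these counts are read as no result about the list. Ptpn6, the phosphatase SHP-1 of blood and microglial cells, fell by 1.52 (SE 0.22) in T41B VEH mice, while Ptpn2 rose by 0.62 (SE 0.13), Ptpn1 rose by 0.56 (SE 0.10) and Pias1 fell by 0.28 (SE 0.07).

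Other C/EBP and PIM genes, 6 tested of 7, rose in 3, 2, 3 and 4 cases and fell in 0, 1, 0 and 1, where 12.3%, 21.5%, 8.87% and 22.9% of all genes were called. Pim3 rose by log2 0.72 (SE 0.15) in WT VEH mice and 0.71 (SE 0.14) in T41B VEH mice, and Ddit3, a stress-responsive C/EBP, by 1.31 (SE 0.21) and 0.71 (SE 0.20). Cebpa was at 22.2 ± 3.46 and 22.9 ± 3.00 CPM in sham and stimulated WT VEH slices and fell by log2 0.63 (SE 0.13) in T41B VEH mice, and Cebpz was at log2 0.34 (SE 0.08) and 0.16 (SE 0.08). Of 19 acute-phase targets tested of 20, 14, 14, 11 and 16 rose and none fell, with a median log2 of 1.91, 1.81, 1.72 and 1.87. Ccl2, a monocyte-attracting chemokine, rose by log2 4.08 (SE 0.33) in WT VEH mice, Icam1 by 2.16 (SE 0.21) and Bcl3 by 2.31 (SE 0.26). Il1rn, the interleukin-1 receptor antagonist, went from 0.10 ± 0.04 to 41.9 ± 10.1 CPM in WT VEH mice and from 1.90 ± 2.33 to 278 ± 112 CPM in T41B VEH mice.

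**Figure D4:**
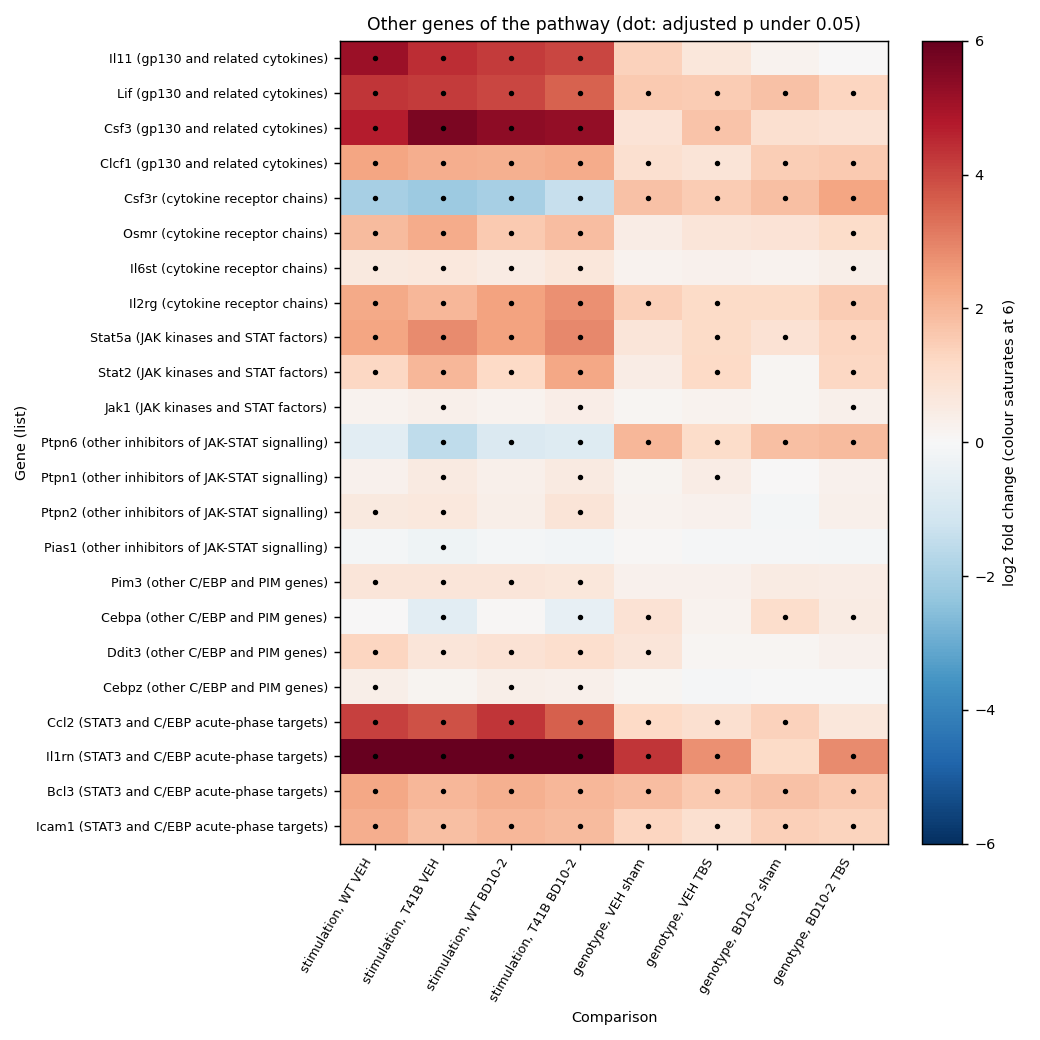
Log2 fold change of the named genes of the 6 pathway lists in 4 stimulation and 4 genotype comparisons, with a dot where the adjusted p was under 0.05. Colour saturates at 6. The stimulation and sham genotype values of Il1rn, Il11 and Csf3 rest on low sham levels, near 0 in WT VEH mice. Lif, Il11, Csf3 and Ccl2 are red in all 4 stimulation columns, and Csf3r is blue in them.

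The members varied together across the 32 samples. Among the 36 pairs of the 9 genes other than Socs2, Pearson's r of log2(CPM + 1) ran from 0.86 to 0.97 with a median of 0.93, and Socs2 gave r from -0.49 to -0.30 with the others. These are descriptions over samples that share the groups and the TMM scaling. Of 16192 genes averaging at least 1 CPM, those with the highest r to Socs3 were Hk2 (0.98), Nfkbie (0.98) and Sdc4 (0.98). For Stat3 they were Sbno2 (0.99), Cd274 (0.99) and Gbp2 (0.99), for Cebpb Ezr (0.98), Sh3bp2 (0.97) and Cebpd (0.97), and for Cish Gpr132 (0.96), Nfkbie (0.93) and Ch25h (0.93). Socs2 was nearest to L1cam (0.90), 9330182L06Rik (0.87) and Ppp2r2b (0.87).

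Counting limits apply to 6 members. Cish, Stat3, Il4ra, Pim1, Cebpb and Cebpd overlap genes on the opposite strand in the GENCODE M21 annotation, Stat3 with Stat5a, Cebpb with Tmem189 and Cebpd with Spidr. The strand setting of the counting is not given in the sources used here, and their values, and that of Stat5a, are uncertain to that extent. Socs1, Socs2, Socs3 and Jak2 overlap no other gene.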

How the data were processed

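The authors deposited RSEM expected counts per gene, which need not be whole (5.69% of the cells hold decimals) and are not scaled. The submitters' processing notes name cutadapt 1.8.1, STAR 2.7.6a, RSEM 1.3.1, featureCounts 1.6, SAMtools 1.11 and the builds GRCm38.p6 and mm10; annotation release and strand setting are not given in the sources used here. Libraries were made from 200 ng of RNA with ribosomal depletion and a stranded kit, per the labels' protocols. Counts were rounded, and 4 same-label library pairs were summed (36 libraries, 32 samples). edgeR 4.0.16 (R 4.3.3) kept 19478 genes by filterByExpr (minimum count 10), scaled them by TMM (factors 0.91 to 1.06) and fitted all 8 groups with no covariate by the quasi-likelihood F test with Benjamini-Hochberg adjustment (threshold 0.05), over 16 comparisons. Alternatives included DESeq2 1.42.0. Intervals are 95% intervals on 24 residual degrees of freedom. The fit was tested on simulated data. Same-mouse slices pair by the labels' mouse numbers: their deviations correlated at a mean r of 0.29 (14 pairs, 13 over 0.1) against -0.08 for 52 other pairs. The main fit did not use this pairing, and the 2 slices of a mouse entered as separate samples. Its p-values measure the spread between samples of a group, not that of differences within a mouse. The members, lists and naming rule were chosen with earlier results of these data known; from each list the 4 genes with the smallest adjusted p in T41B VEH stimulation are named, except 1 that is not reported here. Gene positions are from GENCODE M21 and promoter windows from RefSeq.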

Additional observations from a re-analysis of the deposited data

Results flagged for a closer look

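Of the 60 groups of 4 or 5 mice examined (10 genes in each of 6 groups), 2 held a sample far from the others by Dixon's criterion, where chance flags about 1 in 20. Cish was at 6.876 CPM in the sham slice of Mouse1564 (T41B BD10-2), with the next value at 4.949 CPM (n = 5). Cebpd was at 27.1 CPM in the sham slice of Mouse1522 (WT VEH), with the next value at 17.56 CPM (n = 4). Mouse1564 held the highest sham value of 7 of the 10 members in its group and Mouse1522 that of 8 of 10 in its group.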

How the results depend on the processing

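Over 27 alternatives and 4200 member values, no called value changed direction, and 103 values that were not called changed sign, none larger than 0.28 on the log2 scale under the alternative. For stimulation 9 values lost their call. For genotype 48 lost it and 16 gained it. In VEH sham slices the members called for genotype numbered 4 with the first library of each same-label pair and 2 with the batch covariate, against 7. The share of all genes called with the first library is not given here. Leaving out 1 mouse gave 3 to 9, where the fits without Mouse1510 or Mouse1579 count Socs2 as lower in T41B mice. In BD10-2 sham slices leaving out 1 mouse gave 2 to 7, in VEH TBS slices 7 to 9 and in BD10-2 TBS slices 9. For stimulation it gave 8 to 9 in WT VEH mice, 6 to 8 in WT BD10-2 mice and 9 in both T41B comparisons. The cause was not tested. With the mouse as a replicate block, 7 members were called in WT BD10-2 stimulation and 9 in each of the other 3, and the interactions again gave 0. The block fit used only the 14 mice with both slices, 2 of them WT BD10-2 mice. Its count of all genes called for stimulation is given here only for WT VEH mice. Without the 4 mice that have same-label libraries, an alternative chosen after seeing the data, the counts were 7 in WT BD10-2 stimulation and 8 for genotype in BD10-2 TBS slices. The batch covariate could not be fitted for treatment, and the block only for stimulation and interactions. Of all genes, genotype in VEH sham slices called 1215, and 352 with the batch covariate, 537 with only the groups compared and 556 to 2066 without 1 mouse. Stimulation in WT VEH mice called 2397, and 1581 with only the groups compared and 3873 with the block. The other counts of all genes that moved by over 1.5 times with only the groups compared were 2582 against 4197 (T41B VEH stimulation), 1731 against 1062 and 1240 against 2056 (genotype, BD10-2 sham and TBS). Leaving out 1 mouse lowered the counts of all genes to as few as 1238 (WT VEH stimulation), 2648 (T41B VEH), 758 against 1727 (WT BD10-2), 678 against 1128 (genotype, VEH TBS), 484 (BD10-2 sham) and 1055 (BD10-2 TBS). Without the 4 mice they were 483 and 2968 against 4453 for stimulation in WT and T41B BD10-2 mice and 452 and 577 for genotype in BD10-2 sham and TBS slices. Where 0 genes were called, alternatives called at most 26 for treatment (WT TBS slices, without Mouse1524) and 79 for genotype by stimulation (BD10-2, without Mouse1592), with 0 members among them. Groups of 3 to 5 mice and low counts, as for Cish and Socs1, limit the precision.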
